A study of Mus musculus with 6 samples.

Results

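The genes described here encode 3 tissue inhibitors of metalloproteinases (Timp1, Timp2 and Timp3), the 2 plasminogen activators (Plau for urokinase, Plat for the tissue type), the urokinase receptor (Plaur) and the serpin inhibitor Serpine2, also called protease nexin 1. They were taken by gene symbol and are 7 of the 55401 genes in the deposited expression table. All 7 had an FPKM (fragments per kilobase of gene, scaled to library depth) of 1 or more in 3 or more libraries, which was the condition for testing. Hepatic stellate cells, the vitamin A-storing pericytes of the liver, were taken from mice of the C57BL/6J background. One group carried a single working copy of S100a16 (S100a16+/-, 3 libraries) and the other was wild type (WT, 3 libraries). Both groups were cultured for 7 days in medium with FBS, so time in culture is common to all 6 libraries. The degree of activation need not be. The labels name neither the age of the mice nor how many animals made up a library, so p-values measure the spread between these libraries.

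TIMPs are secreted proteins that sit in the active site of metalloproteinases and block the breakdown of collagen and other matrix. Urokinase and tissue-type activator cut plasminogen to plasmin, a serine protease that dissolves fibrin, attacks matrix glycoproteins and activates several metalloproteinase zymogens. In the injured liver, activated stellate cells are a known source of TIMP1 and TIMP2, and the balance between proteases and their inhibitors is held to set how fast scar matrix is removed.

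S100a16 itself was lower in the libraries labelled S100a16+/-, at 18.0, 17.7 and 30.0 FPKM against 57.7, 58.8 and 56.8 in WT (log2 change -1.35, SE 0.21, edgeR adjusted p = 0.0313). That call was lost when any 1 library other than S100a16+/- replicate 3 was left out (edgeR adjusted p from 0.110 to 0.146). The S100a16+/- libraries did not form 1 group. Across genes, log2(FPKM + 1) of replicate 3 correlated with that of replicates 1 and 2 at a Pearson r of 0.930 and 0.929, and with WT at 0.946 to 0.949. Replicates 1 and 2 correlated with each other at 0.987 and with WT at 0.949 to 0.957, so they too lay apart from WT. Replicate 3 also differed from the other 5 libraries in sex-linked transcripts. It had the X-inactivation RNA Xist at 32.2 FPKM against at most 0.0323 elsewhere, and the Y-linked Ddx3y at 0.0102 against 12.1 to 15.8. Sex and the other features of this library cannot be told apart, and results are given with and without it. Over 14 tested markers of stellate cells and myofibroblasts its median log2 level, relative to the WT mean, was -2.16, against 0.04 and -0.03 in S100a16+/- replicates 1 and 2. The summed level of the 17 listed markers was 2132, 2085 and 1641 FPKM in the S100a16+/- libraries and 2553 to 2702 in WT. Sparc alone made up 826, 816 and 1269 FPKM of the S100a16+/- sums and 1296 to 1401 of the WT sums. The sums thus depend heavily on Sparc, and the medians above do not. Lrat, which marks the quiescent, retinoid-storing state, was below 0.1 FPKM in every library. Macrophage and endothelial transcripts were abundant in both genotypes, with summed marker levels of 10518 to 18394 and 1002 to 2162 FPKM. In bulk RNA, fewer cells of a type and less RNA per cell cannot be told apart.

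The promoters of the TIMP genes are shown because these 3 genes had the most similar levels across libraries. That of Plaur is shown for comparison. Plaur had the library order of Timp1, with S100a16+/- replicate 3 less far below WT (85.4% of the WT mean against 31.5%). The RefSeq promoter windows used here covered 5 of the 7 genes (GRCm38.p6, 250 bases before to 50 after the annotated start). Windows for Plat and Plau were not in the sources used here. The windows are chrX:20869916-20870215 (plus strand) for Timp1, chr11:118355362-118355661 (minus) for Timp2, chr10:86300162-86300461 (plus) for Timp3 and chr7:24462233-24462532 (plus) for Plaur. Each is written 5′ to 3′ along its gene, and capitals mark the motifs found.
Timp1: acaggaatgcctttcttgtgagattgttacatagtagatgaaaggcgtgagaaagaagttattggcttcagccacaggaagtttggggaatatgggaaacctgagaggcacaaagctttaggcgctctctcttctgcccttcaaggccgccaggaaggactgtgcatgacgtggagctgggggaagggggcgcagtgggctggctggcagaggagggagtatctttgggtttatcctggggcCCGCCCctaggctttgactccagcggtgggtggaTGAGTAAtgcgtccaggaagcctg
Timp2: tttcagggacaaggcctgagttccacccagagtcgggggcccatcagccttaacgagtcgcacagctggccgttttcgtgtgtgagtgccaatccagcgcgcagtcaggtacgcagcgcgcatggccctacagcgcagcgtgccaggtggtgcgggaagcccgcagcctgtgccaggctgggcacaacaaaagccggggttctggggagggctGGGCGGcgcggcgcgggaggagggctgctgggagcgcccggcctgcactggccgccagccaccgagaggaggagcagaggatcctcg
Timp3: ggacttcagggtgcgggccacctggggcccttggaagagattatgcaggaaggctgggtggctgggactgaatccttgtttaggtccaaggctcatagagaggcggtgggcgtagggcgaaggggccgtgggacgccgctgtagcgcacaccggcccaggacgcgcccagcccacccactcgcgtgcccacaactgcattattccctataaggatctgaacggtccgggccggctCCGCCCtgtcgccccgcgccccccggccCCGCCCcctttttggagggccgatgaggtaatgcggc
Plaur: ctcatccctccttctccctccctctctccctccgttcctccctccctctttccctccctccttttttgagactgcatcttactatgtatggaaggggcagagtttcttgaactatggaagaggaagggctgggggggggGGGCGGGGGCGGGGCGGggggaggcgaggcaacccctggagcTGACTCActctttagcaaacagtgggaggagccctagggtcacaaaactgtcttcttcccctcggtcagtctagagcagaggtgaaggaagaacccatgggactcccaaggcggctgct
Motifs were searched on both strands, and positions count from the start site, with the base before it as -1. The GC box (GGGCGG), the letters read by SP-type factors, was in all 5 windows, Serpine2 included, and in 35.7% of the 32851 RefSeq promoter windows of this length. Timp1 held it on the other strand at -8 to -3, Timp2 at -37 to -32, and Timp3 on the other strand at -15 to -10 and at 14 to 19. Plaur held 3 copies between -111 and -95, 2 of which share a base. The AP-1 motif TGACTCA was found in Plaur alone, at -69 to -63, and is in 5.2% of all windows. The related letters TGAGTAA were found in Timp1 alone, at 27 to 33, and are in 2.68% of all windows. None of the 5 windows held TATAAA (13.6% of all windows) or TGACGTCA (1.79%). The start sites used by RefSeq and by the table differ by 329 bases for Timp2 and by 40 for Timp3.

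No member passed the test over all 6 libraries: 0 of 7 were called at an edgeR adjusted p under 0.05, against 4.46% of the 12766 genes tested. At an unadjusted p under 0.05 there were 2, Plat and Plau, and 2807 of the 12766 genes tested. The DESeq2 alternative called Plat, in a fit that called 1125 genes higher and 763 lower of 12711. The members' median log2 change was -0.14, against 0.00 over all genes tested. Without S100a16+/- replicate 3 the picture was different, with 4 members higher (Timp1, Timp2, Plau and Plaur) and 1 lower (Plat). In that fit 15.8% of all genes tested were higher and 16.5% lower, 32.3% in all, so a call there was common. The members' median log2 change was then 0.24, against 0.00 over all genes tested. That comparison rests on S100a16+/- replicates 1 and 2.

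**Figure D1:**
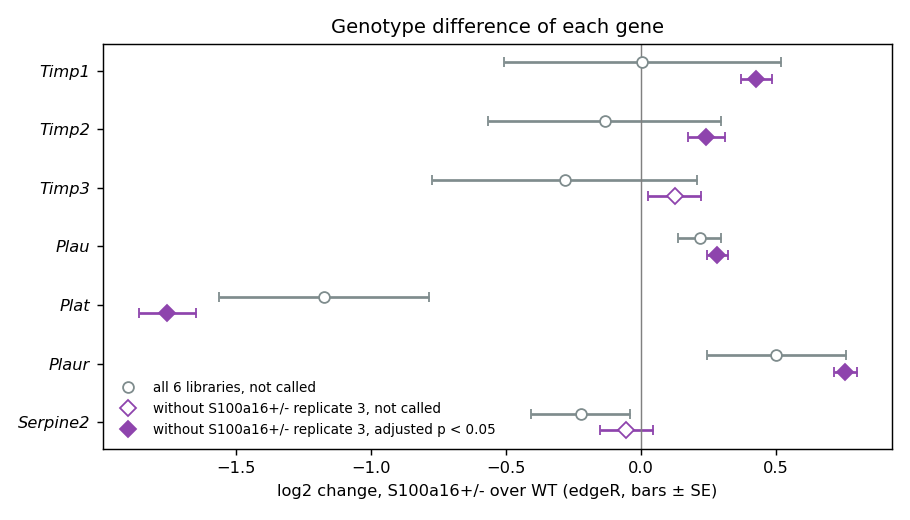
Log2 change of each gene, S100a16+/- over WT, from edgeR (x axis, bars ± SE), over all 6 libraries (circles) and without S100a16+/- replicate 3 (diamonds); filled symbols passed an adjusted p under 0.05. No circle is filled, and Plat lies farthest from 0 in both fits, at -1.17 and -1.76.

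Timp1, the inducible secreted inhibitor most often linked to liver fibrosis, had 118, 113 and 28.3 FPKM in S100a16+/- replicates 1 to 3 and 85.3, 95.1 and 88.8 in WT replicates 1 to 3. S100a16+/- replicates 1 and 2 thus lay above every WT library, reaching 132% and 126% of the mean of WT, and replicate 3 below every one, at 31.5%. The group means were 86.4 ± 50.4 and 89.7 ± 4.98 FPKM (SD, n = 3 each). The log2 change was 0.00 over all 6 libraries (SE 0.51, edgeR adjusted p = 0.996) and 0.43 without replicate 3 (SE 0.06, edgeR adjusted p = 0.00386). Timp1 (ENSMUSG00000001131, chromosome X, 20870166 to 20874735, plus strand) lies inside Syn1, which is read from the opposite strand. Syn1 was given 1281 to 2263 counts in these libraries, or 20.1% to 81.9% of the Timp1 count, the highest share in S100a16+/- replicate 3. The sources used here do not give whether counting used the strand, so the Timp1 values are uncertain to that extent.

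Timp2, an inhibitor that also takes part in the activation of pro-MMP2 by MMP14 at the cell surface, had 149, 147 and 47.3 FPKM in S100a16+/- and 119, 138 and 136 in WT. It showed the order of Timp1 with a smaller step in replicates 1 and 2, reaching 114% and 112% of the mean of WT, with 36.1% in replicate 3. The means were 114 ± 58.1 and 131 ± 10.4 FPKM (SD, n = 3 each). The log2 change was -0.14 over all 6 libraries (SE 0.43, edgeR adjusted p = 0.886) and turned to 0.24 without replicate 3 (SE 0.07, edgeR adjusted p = 0.0463). Timp2 (ENSMUSG00000017466, chromosome 11, 118301069 to 118355740, minus strand) overlaps Cep295nl, which held at most 0.331% of its counts.

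Timp3, which binds to matrix and also inhibits the sheddase ADAM17, had 72.4, 72.9 and 19.6 FPKM in S100a16+/- and 60.5, 75.8 and 72.7 in WT. Here S100a16+/- replicates 1 and 2 lay within the WT range, and replicate 3 was again the lowest library, at 28.1% of the WT mean. The log2 change was -0.28 over all 6 libraries (SE 0.49, edgeR adjusted p = 0.786) and 0.12 without replicate 3 (SE 0.10, edgeR adjusted p = 0.385), a call in neither. Timp3 (ENSMUSG00000020044, chromosome 10, 86300372 to 86349506, plus strand) lies inside Syn3, which held at most 0.22% of its counts. The fourth family member, Timp4, was at most 0.0103 FPKM in each library.

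The TIMP genes followed one another closely. Their TMM-scaled CPM values (counts scaled to library depth), as log2 ratios to the WT mean, differed by 0.12 per library on average between Timp1 and Timp2, by 0.12 between Timp2 and Timp3 and by 0.17 between Timp1 and Timp3. The same measure between a TIMP gene and Plat was 0.89 to 0.98. In S100a16+/- replicate 3 the TIMP ratios were -1.64, -1.44 and -1.81, and in the same library the stellate list had its median of -2.16 and the list of mesothelial and portal fibroblast markers one of -3.00. The smooth-muscle actin gene Acta2 had 48.0 FPKM in that library against 388 to 489 in the other 5. The stellate list was not uniform there. Acta2 was at 11.5% and Col1a1 at 10.5% of the WT mean, but Vim was at 94.1% and Lox at 159%. The part of these cell types in the TIMP levels was not tested.

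**Figure D2:**
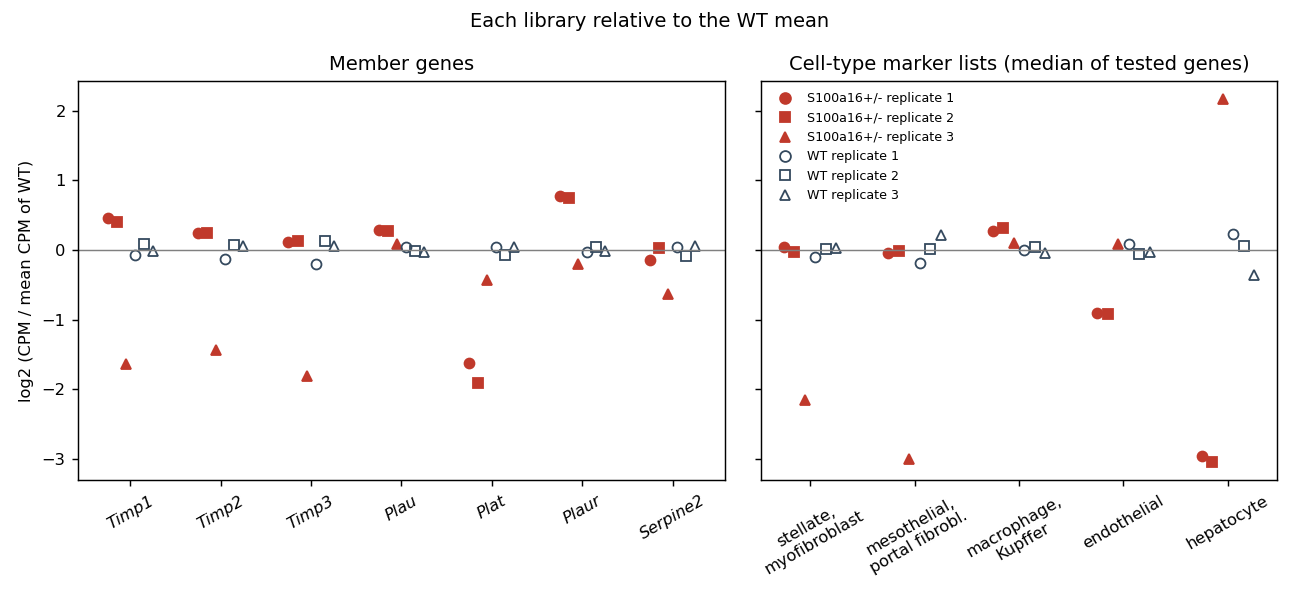
Left, each gene's log2 ratio of TMM-scaled CPM to the WT mean, 1 point per library; right, the median of the same ratio over the tested genes of 5 cell-type marker lists. S100a16+/- replicate 3 (filled triangles) lies at -1.64, -1.44 and -1.81 for the TIMP genes and at -2.16 for the stellate list, while replicates 1 and 2 are low for Plat and for the endothelial and hepatocyte lists.

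Plau, the urokinase gene, had 145, 141 and 127 FPKM in S100a16+/- and 127, 121 and 121 in WT. The groups did not overlap, but S100a16+/- replicate 3 stood only just above WT replicate 1, at 127.4 against 126.5. Groups that do not overlap were found for 2 of the 7 members, Plau and Plat, and for 31.4% of all genes tested. The means were 138 ± 9.11 and 123 ± 3.22 FPKM (SD, n = 3 each; exact permutation p = 0.1, two-sided, the smallest that 3 against 3 libraries allow). The log2 change of 0.22 (SE 0.08, edgeR adjusted p = 0.190) did not pass, and was 0.28 without replicate 3 (SE 0.04, edgeR adjusted p = 0.00424). Of the 7 members Plau varied least within S100a16+/-, with replicate 3 at 89.1% of the mean of replicates 1 and 2. Its locus (ENSMUSG00000021822, chromosome 14, 20836660 to 20843385, plus strand) overlaps no other gene in the table.

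Plat, the tissue-type activator gene, which endothelial cells are known to make, had 3.55, 2.88 and 8.22 FPKM in S100a16+/- and 11.6, 10.7 and 11.7 in WT. Every S100a16+/- library was below every WT library, and replicates 1 and 2, with 31.3% and 25.4% of the mean of WT, were well below replicate 3, at 72.4%. The means were 4.88 ± 2.91 and 11.4 ± 0.527 FPKM (SD, n = 3 each; exact permutation p = 0.1, two-sided). The log2 change was -1.17 over all 6 libraries (SE 0.39, edgeR adjusted p = 0.160). It was -1.76 without replicate 3 (SE 0.11, edgeR adjusted p = 0.000242), and DESeq2 called it over all 6 libraries at -1.17 (DESeq2 adjusted p = 0.0247). DESeq2 called 1125 genes higher and 763 lower, against 364 and 206 by edgeR, so a call there was more common. The 12 tested endothelial markers had medians of -0.90, -0.92 and 0.08 in S100a16+/- replicates 1 to 3. Replicates 1 and 2, the lowest in Plat, were thus low in that list. Replicate 3, also below WT in Plat, was not. The summed level of the 14 listed endothelial markers was 1054, 1002 and 2162 FPKM in S100a16+/- and 1872 to 2018 in WT, and none was called over all 6 libraries. Without replicate 3, the edgeR fit that called Plat, 9 of the 12 were lower and 0 higher, against 16.5% and 15.8% of genes tested. Eng, Oit3 and Gpr182 were not called. Clec4g, not tested, was higher in replicates 1 and 2, at 3.24 and 3.14 FPKM against 0.576 to 0.995 in WT. The part of endothelial cells in the Plat level was not tested. Plat (ENSMUSG00000031538, chromosome 8, 22757727 to 22782844, plus strand) overlaps no other gene in the table.

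Plaur, the membrane-anchored receptor that holds urokinase at the cell surface, had 54.0, 52.3 and 28.1 FPKM in S100a16+/- and 31.9, 34.0 and 32.7 in WT. S100a16+/- replicates 1 and 2 were the highest libraries, reaching 164% and 159% of the mean of WT, while replicate 3 was the lowest, at 85.4%. The log2 change was 0.50 over all 6 libraries (SE 0.26, edgeR adjusted p = 0.325) and 0.76 without replicate 3 (SE 0.04, edgeR adjusted p = 0.000202). Among the members that were higher in that fit it had the largest change. The 16 macrophage markers had medians of 0.27, 0.32 and 0.10 in S100a16+/- replicates 1 to 3. Of them 5 rose over all 6 libraries (Adgre1, Marco, Cd5l, Msr1 and Cd14), against 2.85% of all genes tested. Without replicate 3, the fit that called Plaur, 8 were higher and 5 lower, against 15.8% and 16.5% of all genes tested. The 5 lower were C1qa, C1qb, C1qc, Mrc1 and Timd4, so the list was split. The summed level of the macrophage list was 17152, 18394 and 13418 FPKM in S100a16+/- and 10518 to 11084 in WT. The lysozyme gene Lyz2 alone made up 9230, 10057 and 5460 FPKM of the S100a16+/- sums. The part of these cells in the Plaur level was not tested. Plaur (ENSMUSG00000046223, chromosome 7, 24462484 to 24475968, plus strand) overlaps no other gene in the table.

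Serpine2, which inhibits thrombin, urokinase and plasmin, was the least abundant member, at 1.27, 1.40 and 0.914 FPKM in S100a16+/- and 1.48, 1.36 and 1.50 in WT. S100a16+/- replicate 3 was the lowest library, at 63.1% of the WT mean, and replicate 2 lay within the WT range. The log2 change was -0.22 over all 6 libraries (SE 0.18, edgeR adjusted p = 0.541) and -0.06 without replicate 3 (SE 0.10, edgeR adjusted p = 0.711). Its locus (ENSMUSG00000026249, chromosome 1, 79794197 to 79858696, minus strand) overlaps no other gene in the table. Plg, the plasminogen gene, a product of hepatocytes, had 2.76 FPKM in S100a16+/- replicate 3, at most 0.0129 in replicates 1 and 2, and 0.163 to 0.246 in WT. It was not tested. The median of the hepatocyte list moved in the same way, at -2.95, -3.05 and 2.16 in S100a16+/- replicates 1 to 3. Not every gene of that list did. Ass1 was at 178%, 187% and 55.1% of the WT mean, and Trf at 85.3%, 84.2% and 90.9%.

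**Figure D3:**
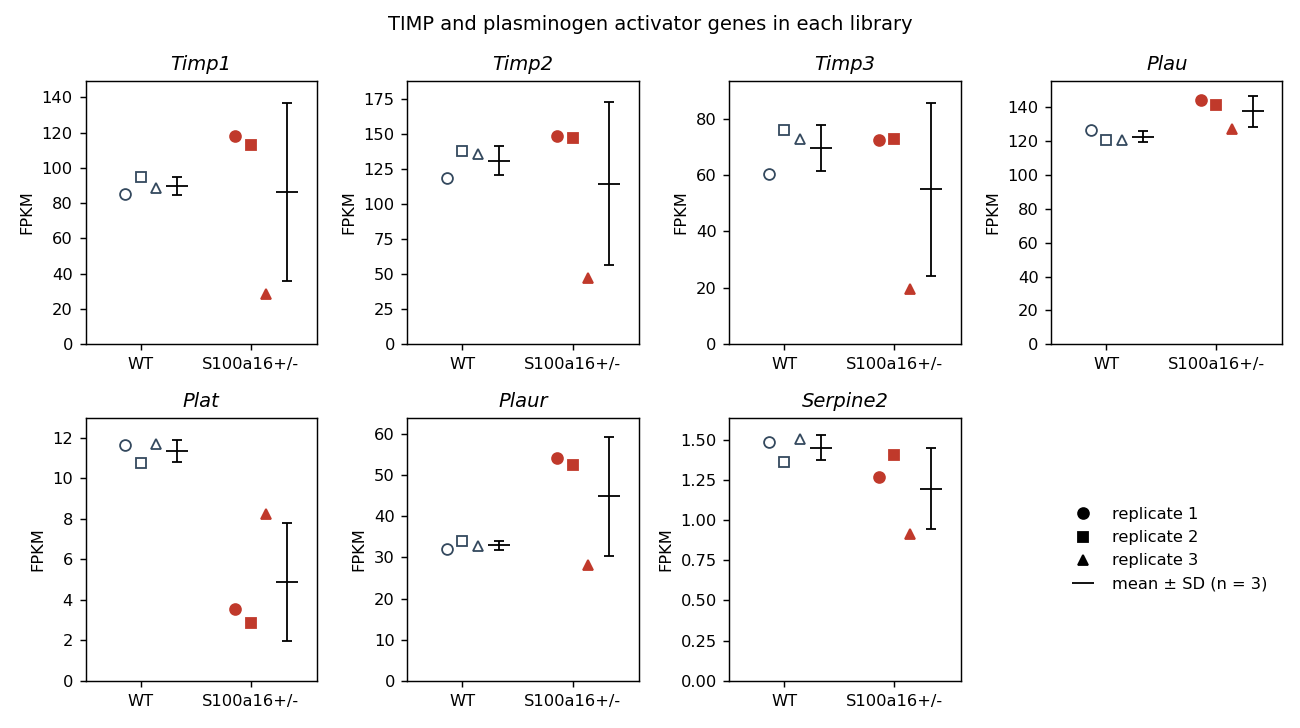
FPKM of each gene in each library (y axes from 0, scaled per gene), WT open and S100a16+/- filled, with the mean ± SD of 3 libraries beside the points. S100a16+/- replicate 3 (triangle) is far below the other 5 libraries for Timp1, Timp2 and Timp3, at 28.3, 47.3 and 19.6 FPKM, whereas for Plat replicates 1 and 2 are lowest, at 3.55 and 2.88.

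Ordered by mean FPKM in WT, the members ran from Timp2 (131) and Plau (123) through Timp1 (89.7), Timp3 (69.7), Plaur (32.9) and Plat (11.4) to Serpine2 (1.45). Timp2 and Plau overlapped between WT libraries, and no other neighbours in this order did. In S100a16+/- the order of the means was the same except that Plau (138) stood before Timp2 (114). There the neighbours from Plau down to Plaur overlapped, because the TIMP genes ranged so widely between libraries. The urokinase gene was thus expressed about as highly as the most abundant TIMP gene in WT, and Plat, on the same per-length scale, well below both.

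Ratios of FPKM within a library do not depend on how libraries are scaled to one another. Of 5 ratios compared, 3 had groups that did not overlap, and none could pass, since the smallest exact permutation p was 0.1 (0.167 after Benjamini-Hochberg adjustment over the 5). The ratio of Plau to Plat was 40.7, 49.0 and 15.5 in S100a16+/- and 10.9, 11.3 and 10.3 in WT, a difference of 1.54 in mean log2 ratio (exact permutation p = 0.1, two-sided). All 3 S100a16+/- libraries thus held more urokinase transcript per tissue-type activator transcript than any WT library, with replicate 3 nearest to WT. In all 3, Plau lay above and Plat below every WT library. The separation of this ratio, and its p, follow from that and are no separate result. Plau to Serpine2 was 114, 101 and 139 against 85.3, 88.9 and 80.4, a log2 difference of 0.46 (exact permutation p = 0.1, two-sided). Timp1 to Timp3 was 1.63, 1.55 and 1.44 against 1.41, 1.25 and 1.22, a log2 difference of 0.25 (exact permutation p = 0.1, two-sided). For this pair replicate 3 lay above every WT library but nearest to WT replicate 1, at 1.44 against 1.41. Both genes were low in replicate 3, and Syn1 was given 81.9% of the Timp1 count there, so its ratio is the least certain. Timp1 to Timp2, at 0.794, 0.767 and 0.598 against 0.718, 0.691 and 0.653, overlapped (log2 difference 0.06, exact permutation p = 0.7, two-sided). Plat to Serpine2 overlapped too, at 2.80, 2.05 and 8.99 against 7.84, 7.90 and 7.77 (log2 difference -1.07, exact permutation p = 0.4, two-sided). With 1 added to each FPKM the exact permutation p was 0.1, and with 1 library left out the difference ran from -1.71 to -0.64.

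**Figure D4:**
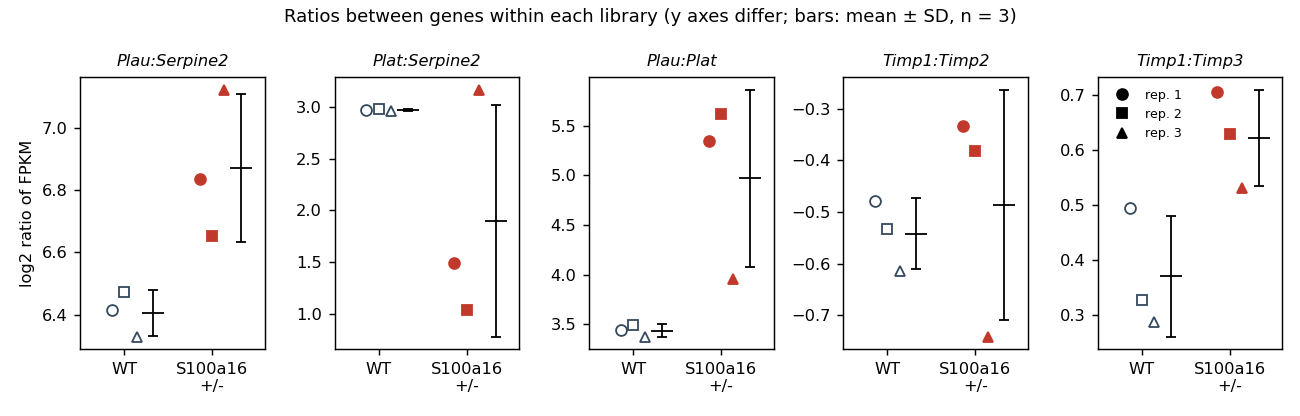
Log2 ratio of FPKM between 2 genes within each library, 1 point per library (WT open, S100a16+/- filled), with the mean ± SD of 3 libraries; the y axes differ and do not start at 0. The groups separate for Plau:Serpine2, Plau:Plat and Timp1:Timp3 and overlap for Plat:Serpine2 and Timp1:Timp2.

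The wider pathway was followed through 6 lists with 88 genes, of which 87 were found in the table and 62 were tested. Among the 62, members included, 3 rose and 4 fell over all 6 libraries, against 2.85% and 1.61% of all genes tested. Their median log2 change was -0.00492, against 0.00 over all genes tested. None of these 7 calls held when any 1 library other than S100a16+/- replicate 3 was left out. Without that replicate 23 were higher and 23 lower, against 15.8% and 16.5% of all genes tested in that fit, and the median was 0.07.

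Among receptors and binding partners of plasmin and its activators 1 of 10 tested genes fell, against 1.61% of all genes tested. It was S100a10, whose protein pairs with annexin A2 as a surface receptor for plasminogen and which, like S100a16, lies on chromosome 3. S100a10 had 70.0, 66.6 and 69.4 FPKM in S100a16+/- and 101, 105 and 107 in WT (log2 change -0.55, SE 0.05, edgeR adjusted p = 0.0104). All 3 S100a16+/- libraries, replicate 3 included, lay close together and below WT. S100a10 is named because this fit called it, and 31.4% of all genes tested had groups that did not overlap. Its partner Anxa2 had 175, 165 and 150 FPKM against 206, 213 and 223, without a call (log2 change -0.34, edgeR adjusted p = 0.103; -0.27 and 0.00879 without replicate 3). Itgb2, the leukocyte integrin chain of the plasminogen-binding Mac-1, had 382, 391 and 142 FPKM against 138, 143 and 132 (log2 change 1.21, edgeR adjusted p = 0.151; 1.55 and 4.14e-05 without replicate 3). Lrp1, the receptor that clears activator and inhibitor complexes, was chosen after its values were seen. It had 96.9, 96.4 and 50.4 FPKM against 59.8, 59.5 and 60.4, so that, as for Plaur, S100a16+/- replicates 1 and 2 lay above every WT library and replicate 3 below (log2 change 0.50, edgeR adjusted p = 0.346). Without replicate 3 this list had 5 higher and 2 lower, against 15.8% and 16.5% of all genes tested.

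Among the plasminogen-activating proteases 3 of 8 were tested and none was called over all 6 libraries. The list of serpins and other inhibitors of fibrinolysis had 0 of 8 called. Without replicate 3 it had 3 higher and 2 lower, against 15.8% and 16.5% of all genes tested. Among its most abundant genes was Serpinh1, which encodes a collagen chaperone and not a protease inhibitor. Serpinh1 had 104, 221 and 124 FPKM in S100a16+/- and 273, 283 and 283 in WT (log2 change -0.84, edgeR adjusted p = 0.170). DESeq2, which called more genes than edgeR, called it over all 6 libraries (DESeq2 adjusted p = 0.0370). Leaving out S100a16+/- replicate 2 gave a call (edgeR adjusted p = 0.0383), the only one in this list among the 5 fits that leave out a library other than replicate 3.

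Of 22 tested metalloproteinases that TIMPs can bind, 3 rose and none fell, against 2.85% and 1.61% of all genes tested. The list median was -0.03. Mmp9, the gelatinase that TIMP1 binds as a zymogen, had 238, 222 and 127 FPKM in S100a16+/- and 76.0, 74.3 and 74.5 in WT (log2 change 1.44, SE 0.25, edgeR adjusted p = 0.0400). Mmp10, a stromelysin, had 16.4, 15.8 and 13.7 FPKM against 7.36, 7.70 and 7.07 (log2 change 1.11, SE 0.11, edgeR adjusted p = 0.0103). Mmp14, the membrane-bound activator of MMP2, had 82.1, 81.6 and 83.5 FPKM against 61.0, 62.5 and 61.5 (log2 change 0.47, SE 0.06, edgeR adjusted p = 0.0198). All 3 were higher in S100a16+/- replicate 3, the library lowest in the TIMP genes, than in any WT library. They are named because this fit called them, and 31.4% of all genes tested had groups that did not overlap. The 5 macrophage markers named with Plaur rose as well, but the list of 16 was split. Without replicate 3 it had 8 higher and 5 lower, the latter being C1qa, C1qb, C1qc, Mrc1 and Timd4. The part of macrophages in the levels of Mmp9, Mmp10 and Mmp14 was not tested. Mmp12, the macrophage elastase, was chosen after its values were seen. It had 464, 534 and 54.8 FPKM against 62.7, 62.2 and 59.8, so replicate 3 lay below every WT library (log2 change 2.57, edgeR adjusted p = 0.137; 3.08 and 4.04e-05 without replicate 3). Mmp13, a collagenase, was not called, at 127, 134 and 80.4 FPKM against 72.9, 72.4 and 71.0 (log2 change 0.71, edgeR adjusted p = 0.119). Without replicate 3 the metalloproteinase list had 9 higher and 5 lower, against 15.8% and 16.5% of all genes tested. Its median was 0.08.

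Among 15 tested plasmin and thrombin substrates, receptors and starters of coagulation 3 fell and none rose, against 1.61% and 2.85% of all genes tested. The list median was -0.37. Thbs1, whose product thrombospondin 1 binds plasmin and activates latent TGF-beta, had 511, 500 and 482 FPKM in S100a16+/- and 823, 756 and 793 in WT (log2 change -0.62, SE 0.10, edgeR adjusted p = 0.0317). F2r, the thrombin receptor PAR1, had 89.8, 86.2 and 83.6 FPKM against 134, 131 and 129 (log2 change -0.55, SE 0.07, edgeR adjusted p = 0.0195). The laminin chain gene Lama5 fell as well (log2 change -0.51, SE 0.09, edgeR adjusted p = 0.0394). Fn1, the fibronectin gene, had 264, 260 and 113 FPKM against 364, 351 and 404, without a call (log2 change -0.76, edgeR adjusted p = 0.268). All 3 S100a16+/- libraries lay below every WT library for these 4 genes, and for Fn1 they ranged more widely among themselves. Thbs1, F2r and Lama5 are named because the same fit called them, so this adds no separate support. Groups that do not overlap were found for 31.4% of all genes tested. Without S100a16+/- replicate 3 the list had 3 higher and 12 lower, against 15.8% and 16.5% of all genes tested.

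For each member the nearest genes were sought among 6663 other tested genes whose FPKM averaged 5 or more, by the mean absolute difference in log2 ratio to the WT mean over the 6 libraries. For Timp1 they were Anxa1 (annexin A1, 0.06) and Cpxm1 (0.08), for Timp2 Phgdh (serine synthesis, 0.04) and Fat1 (0.05), and for Timp3 Ezr (ezrin, 0.02) and Mmp2 (gelatinase A, 0.06). Mmp2, the main target of TIMP2, had 23.1, 21.6 and 6.05 FPKM in S100a16+/- and 18.8, 22.5 and 24.8 in WT, so the enzyme shared the drop of the TIMP genes in replicate 3. For Plat they were Arhgef28 (0.08) and Ulbp1 (0.08), and for Plaur the proton pump subunit gene Atp6v0a1 (0.02) and Ubash3b (0.03). Plau lay nearest to Esrra (0.01) and Zcchc10 (0.01), and Serpine2 near Mgmt (0.05). These are descriptions of 6 libraries, which replicate 3 shapes strongly, and carry no test.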

How the data were processed

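Per the labels' protocols, poly(A) RNA with an integrity number above 7 was sequenced as strand-marked, paired-end libraries with molecular identifiers. Tools listed, without roles, in the submitters' processing notes include StringTie 1.3.4d, HISAT2 2.0.4, UMI-tools and cutadapt 1.9, and also edgeR and DESeq2. For every gene and library the authors deposited a raw count and an FPKM value, per the file headers. A count of 0 carried an FPKM of 0.0001. Which build was used is not stated there (not given in the sources used here). Among the table's gene identifiers, 55141 (99.5%) were in GENCODE M21 of GRCm38, 94.2% of them with the same coordinates, as for 6 of the 7 members; the exception is Serpine2. Library totals ran from 61979103 to 76291481 counts, and no 2 libraries were identical.

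Counts were scaled by TMM and fitted across all genes tested with edgeR 4.0.16 quasi-likelihood (R 4.3.3), genotype as the only term, Benjamini-Hochberg adjusted. Genes needed 3 or more libraries with an FPKM of 1 or more, also where a library was left out. Each SE was obtained from the log2 change and the F statistic (absolute change over root F). FPKM values and ratios were compared by exact permutation. Alternatives were limma 3.58.1 on log2(FPKM + 1) and with pseudocounts of 0.1 and 5, DESeq2 1.42.0, other scalings and filters, a replicate block and left-out libraries. The edgeR step was tested on simulated data. These held no library set apart from its group, as S100a16+/- replicate 3 was, so that test does not cover such a case. Members, lists and the rule for named genes were chosen with earlier results of these data known. The rule took the members, Plg, up to 4 called genes and the 2 most abundant genes of each list, and the nearest genes by level; some genes it named are not reported here. One listed histone symbol had no row.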

Additional observations from a re-analysis of the deposited data

How the results depend on the processing

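Which library is left out matters most: of the 6 fits that leave out 1 library, Timp1, Timp2, Plau, Plat and Plaur were called in the one without S100a16+/- replicate 3 and in no other, and Timp2 and Timp3 change sign without it. With each library left out in turn, the log2 changes ran from -0.28 to 0.43 for Timp1, -0.37 to 0.24 for Timp2, -0.55 to 0.12 for Timp3, -1.76 to -0.91 for Plat, 0.18 to 0.28 for Plau, 0.35 to 0.76 for Plaur and -0.36 (without S100a16+/- replicate 2) to -0.06 for Serpine2. The log2 ratio difference ran from -0.0202 to 0.18 for Timp1 to Timp2 and from -1.71 to -0.64 for Plat to Serpine2. Over all genes, calls ran from 20 to 1990 higher and from 5 to 2075 lower. The lists ran from 0 to 1 higher and 0 to 2 lower for activating proteases, 0 to 5 and 0 to 2 for receptors and partners, 0 to 3 and 0 to 2 for fibrinolysis inhibitors, 0 to 2 higher for TIMPs, 0 to 9 and 0 to 5 for metalloproteinases, and 0 to 3 and 0 to 12 for substrates. In each case S100a16+/- replicate 3 left out gave the highest count.

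Timp1, at 0.00 with all 6 libraries, was -0.0582 with library totals alone, -0.30, -0.31 and -0.27 by limma with pseudocounts of 1, 0.1 and 5, -0.00229 with no filter and -0.0026 at a mean FPKM of at least 5. DESeq2 called Plat (log2 change -1.17, DESeq2 adjusted p = 0.0247) and 1125 genes higher and 763 lower, against 364 and 206. With no filter 162 were higher and 81 lower, and at a mean FPKM of at least 5, 137 were lower. Library totals alone moved the median of all genes from 0.00 to -0.05 and the calls to 282 higher and 252 lower; limma on log2(FPKM + 1) gave 260 and 247. The replicate numbers showed no sign of pairing the libraries. Deviations from the group means of same-numbered libraries correlated at -0.14, 0.04 and -0.05 across genes, against -0.08 to 0.11 for different numbers. With 3 libraries per group, deviations from a group mean are not independent, so these values cannot settle whether the numbers pair libraries. With the number as a replicate block in edgeR, Timp1 was -0.23 and 0 genes were higher and 0 lower, with 2207 at an unadjusted p under 0.05; the cause was not tested. The 5 ratios kept their direction with FPKM + 1 and with CPM, and Plat to Serpine2 had an exact permutation p of 0.1 with FPKM + 1.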

Other observations

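In a few genes of the lists a library departed from its otherwise similar partners. Serpinh1, the collagen chaperone gene, had 19914 counts in S100a16+/- replicate 1 and 42009 in replicate 2, while the members differed little between these libraries. Itgam, which encodes the alpha chain of Mac-1, had 2894 counts in WT replicate 2 against 6231 and 6093 in WT replicates 1 and 3. Adam10, a membrane sheddase gene, had 9978, 15577 and 10273 counts in S100a16+/- replicates 1 to 3 and 10333, 18145 and 17519 in WT. These genes were chosen after their values were seen.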
